A study of Mus musculus with 18 samples.

Results

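The effect of N-acetylcysteine ethyl ester (NACET), a membrane-permeable ester of the thiol antioxidant N-acetylcysteine, was measured in the retina of diabetic Akita mice. The members were chosen by their sample titles, without use of any measured value: 5 libraries of treated mice (Akita + NACET) and 4 of untreated mice (Akita), 9 of the 18 libraries of the series. Every gene that passed the filter on low counts entered the comparison, 16183 genes in all.

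All mice were male. The Akita mice were C57BL/6-Ins2Akita/J, which carry a dominant spontaneous mutation of the insulin gene Ins2 and lose insulin secretion as their pancreatic beta cells fail, a model of type 1 diabetes. From 4 to 24 weeks of age the treated mice drank water with 0.33 mg/mL NACET, for a daily intake of 50 mg/kg, and the Akita controls drank water without it. The other libraries came from C57BL/6J mice (WT, 3 libraries) and from C57BL/6J mice given NACET on the same schedule (WT + NACET, 6), and enter here as the second genotype. The libraries measured poly(A) RNA of whole retina, and values are CPM, read counts in genes scaled to a common library size with trimmed mean of M-values (TMM) factors. The labels do not say that each library came from a separate mouse, so the p-values measure the spread between these libraries. Ins2 had 0 to 9 reads in each of the 18 libraries, too few to check the genotype in the retina.

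The retina is a layered sheet in which rods and cones convert light into a fall in glutamate release, bipolar cells carry that signal inward, horizontal and amacrine cells shape it with GABA and glycine, and ganglion cells send it to the brain. Rods outnumber all other neurons of the mouse retina, and their outer segments hold the visual pigment and the cascade of transducin, phosphodiesterase and cyclic nucleotide-gated channel. NRF2, encoded by Nfe2l2, is a transcription factor that is held in the cytoplasm and marked for degradation by KEAP1. When thiols of KEAP1 are modified, NRF2 enters the nucleus and induces genes of glutathione synthesis, quinone reduction and NADPH supply through antioxidant response elements. Cysteine released from NACET is also a building block of glutathione and of taurine. The comparison asks how long-term NACET changed the transcriptome of the diabetic retina.

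Library totals in genes ran from 13522000 to 17814000 counts (rounded to 5 significant digits). Rod genes were the most abundant class in all 9 libraries, and the 23 genes of the rod list summed to between 116000 and 266700 CPM. Marker sums of tissue next to the retina varied: lens crystallins from 41.2 to 3507 CPM and pigment epithelium genes from 544 to 1218 CPM, with overlapping groups in both. Akita replicate 4 stood apart. Its rod genes summed to 266700 CPM against 179500 to 197500 CPM in the other 3 Akita libraries, its ganglion cell markers to 995 CPM against 1969 to 2364 CPM, and its TMM factor was 0.803. The share of reads outside annotated exons also separated the groups. It was 13.3%, 12.9%, 9.67% and 10.2% in Akita and 15.4%, 16.9%, 14.3%, 15.7% and 19.8% in Akita + NACET, a difference of 4.91 percentage points (two-sided exact permutation test, p = 0.0159, the smallest the design allows; adjusted p = 0.0358 over 9 library measures).

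Of the 16183 genes, 1562 (9.65%) passed an adjusted p of 0.05 in edgeR's quasi-likelihood test, and these are called below: 730 genes (4.51%) were higher and 832 (5.14%) lower in Akita + NACET. Among called genes, increases were larger than decreases, but the sizes were not compared at equal level. The median level was 2.27 CPM per kilobase of exon for genes called higher and 34.3 for those called lower. The median log2 fold change was 0.69 among the genes called higher and -0.39 among those called lower, and 142 of the former but 8 of the latter passed a 2-fold change. The libraries of the groups did not overlap for 1265 of the called genes, against 14.1% of all genes tested. Every adjusted p lay at 0.0104 or above. The number of calls rested on Akita replicate 4: without it 1 gene, Dlg4, was called by edgeR, while 3813 genes had an unadjusted p under 0.05 and the median log2 fold changes of the called genes were 0.65 and -0.32. With that share added to the model edgeR called 0 genes, with 1281 at an unadjusted p under 0.05, and the medians were 0.38 and -0.22. Of the 114 called genes that the naming rule picks, 68 had a fold change smaller by more than 1.5 times in that model on the log2 scale. The group and that share cannot be told apart in these 9 libraries. Calls also fell to 101 without treated replicate 5, 425 without treated replicate 2, 872 without treated replicate 4, 808 without Akita replicate 1 and 992 without Akita replicate 3.

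**Figure D1:**
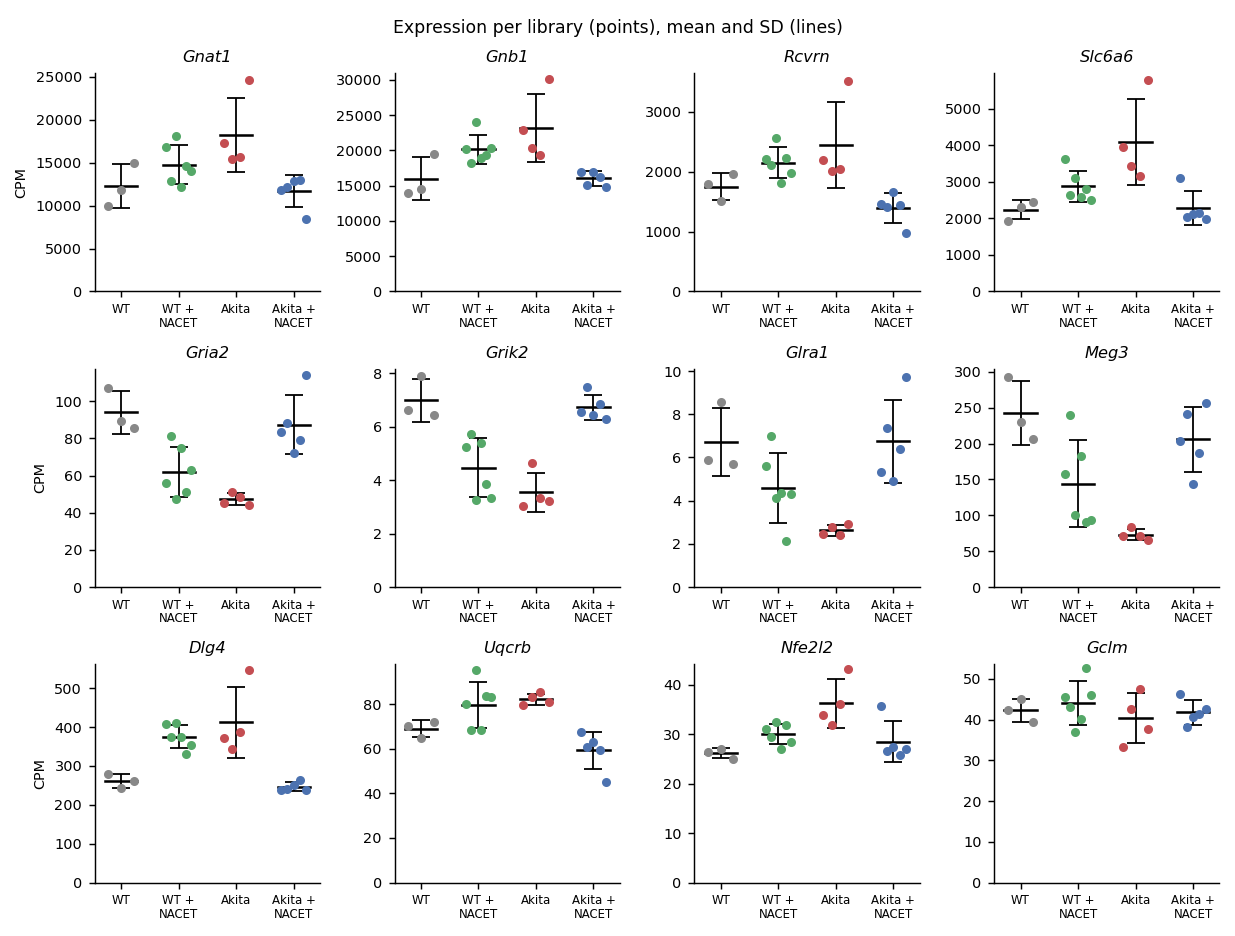
Expression in CPM (vertical axes, starting at 0) of 12 genes in each of the 18 libraries (points) by group, with the group mean and SD (lines). Gnat1, Gnb1, Rcvrn, Slc6a6, Dlg4 and Uqcrb lie higher in Akita than in Akita + NACET, Gria2, Grik2, Glra1 and Meg3 lie lower, and Nfe2l2 and Gclm overlap.

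Many photoreceptor genes fell. Of 23 genes of rod phototransduction tested, 12 were called lower (52.2%, against 5.14% of all genes) and 0 higher. The list median was -0.44 (log2) against -0.0032 over all genes, and all 23 fold changes were below 0. Without Akita replicate 4 the list median was -0.28 and no member was called. With the share outside exons in the model it was -0.32. Fewer rods and less RNA per rod cannot be told apart in whole retina.

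Gnat1 (ENSMUSG00000034837.7, mm9 chr9:107576808-107581923), the alpha subunit of rod transducin, had 17300, 15400, 15600 and 24600 CPM in Akita and 11800, 12200, 12900, 13000 and 8430 CPM in Akita + NACET. Every treated library was below every untreated one, and the fold change was -0.65 on the log2 scale (SE 0.162, adjusted p = 0.0238, edgeR), or -0.47 without Akita replicate 4, the highest library. Rcvrn, the photoreceptor calcium sensor recoverin, showed the steepest fall of the list. It had 2200, 2020, 2040 and 3520 CPM in Akita and 1460, 1420, 1670, 1450 and 976 CPM in Akita + NACET (log2 fold change -0.81, SE 0.162, adjusted p = 0.0161).

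Other called members covered each step of the cascade. They were Gnb1 (-0.53), which encodes the transducin beta subunit, Pde6a (-0.44) and Pde6g (-0.73), catalytic and inhibitory subunits of the phosphodiesterase, and Cnga1 (-0.39) and Cngb1 (-0.59), subunits of the channel. The exchanger Slc24a1 (-0.63), the guanylate cyclase Gucy2f (-0.74), the retinoid transporter Abca4 (-0.51) and Rgs9bp (-0.45), which anchors the complex that switches transducin off, were also called lower. Here and below, members of a list beyond its 2 smallest p-values per direction were picked for mention after their values were seen.

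Genes of outer segment structure and photoreceptor identity followed, with 10 of 20 called lower (50%, against 5.14% of all genes) and 0 higher. Their median was -0.41 (-0.25 without Akita replicate 4, -0.24 with the share outside exons in the model). Crx and Nrl, transcription factors that direct photoreceptor genes, had log2 fold changes of -0.53 and -0.49. Crx had 952, 896, 953 and 1570 CPM in Akita against 761, 756, 752, 832 and 697 CPM in Akita + NACET, again without overlap. The disc rim proteins Prph2 and Rom1 fell by 0.50 and 0.44, and the disc cadherin Cdhr1 fell by 0.66 on the log2 scale. Of 14 cone genes tested, 4 were called lower (28.6%, against 5.14% of all genes). They were Gnat2, Gngt2, Pde6c and Pde6h, cone counterparts of the transducin and phosphodiesterase subunits. Gngt2, which shares exonic sequence with Abi3 on the other strand, had 123, 112, 129 and 131 CPM in Akita and 78.7, 83.2, 98.1, 91.0 and 63.4 CPM in Akita + NACET (-0.58, SE 0.102, adjusted p = 0.0161). In this gene Akita replicate 4 was not set apart, and its fold change was -0.55 without that library.

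Because the rod genes moved together, the 120 bases before the annotated start of 3 called members are shown in mm9, 5′ to 3′ on the gene's strand. Capitals mark TAATCC or its reverse complement GGATTA, the core site of CRX, a motif that was chosen after the fall of these genes was seen. The windows are Rcvrn at chr11:67508708-67508827, Pde6g at chr11:120314815-120314934 (minus strand) and Gucy2f at chrX:138631475-138631594 (minus strand).
Rcvrn: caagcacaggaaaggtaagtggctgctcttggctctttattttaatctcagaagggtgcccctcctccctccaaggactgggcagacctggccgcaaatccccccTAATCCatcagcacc
Pde6g: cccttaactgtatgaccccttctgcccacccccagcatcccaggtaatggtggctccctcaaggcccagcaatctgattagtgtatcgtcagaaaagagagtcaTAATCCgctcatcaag
Gucy2f: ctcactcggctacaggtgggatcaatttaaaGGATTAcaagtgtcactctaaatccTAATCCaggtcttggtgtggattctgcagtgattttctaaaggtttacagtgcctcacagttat
Over windows of 300 bases (250 before to 50 after the start, either strand), 11 of 23 rod genes (47.8%) and 5 of 20 outer segment and identity genes (25.0%) held the motif, against 7.09% of 15892 windows of tested genes. The share was 10.1% among 829 genes called lower and 5.69% among 703 called higher. Called rod genes without it before the start included Gnat1 and Gnb1. The letters are a description of the windows and were not tied to binding.

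Slc6a6 encodes the taurine transporter TauT, and taurine is highly concentrated in photoreceptors. The gene had 3960, 3440, 3170 and 5770 CPM in Akita and 3100, 2030, 2120, 2150 and 1980 CPM in Akita + NACET. The treated replicate 1 was next to the lowest Akita library, and the others lay far below. On the log2 scale the change was -0.85 (SE 0.165, adjusted p = 0.0161). Among 20 genes of cysteine and taurine metabolism 0 were called higher, and the median was -0.35. Slc6a6 was 1 of 5 members called lower (25%, against 5.14% of all genes). The others were the transaminases Got1 and Got2, the sulfur dioxygenase Ethe1 and Ahcy, the hydrolase of S-adenosylhomocysteine.

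Many genes for neurotransmitter receptors and ion channels rose. Across 8 lists on synapses and channels, 59 of 178 genes were called higher (33.1%, against 4.51% of all genes) and 5 lower, and the median log2 fold change was 0.47. The median was 0.41 without Akita replicate 4, but then no member was called higher. With the share outside exons in the model the AMPA and kainate median went from 0.63 to 0.34, the metabotropic from 0.70 to 0.29 and the potassium channel median from 0.56 to 0.37. These transcripts belong mainly to inner retinal neurons. Several are long genes with low counts, and the shares by gene length are given further on.

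Among ionotropic glutamate receptors, 6 of 9 AMPA and kainate subunits were called higher and 0 lower: Gria1, Gria2, Gria3, Gria4, Grik1 and Grik2. Gria2, the subunit that makes AMPA receptors impermeable to calcium, had 45.3, 51.4, 48.7 and 44.0 CPM in Akita. It had 83.4, 88.1, 72.4, 79.2 and 114 CPM in Akita + NACET, so that the lowest treated library was well above the highest untreated one. The log2 fold change was 0.89 (SE 0.149, adjusted p = 0.0152), and 0.85 without Akita replicate 4. Grik2, a kainate receptor subunit, had 3.02, 4.63, 3.33 and 3.23 CPM against 6.55, 7.48, 6.45, 6.84 and 6.27 CPM (0.91, SE 0.183, adjusted p = 0.0161). The NMDA and delta list held 3 of 8 called higher (Grin1, Grin2b and Grid1) and the metabotropic list 4 of 8 (among them Grm4 and Grm7), with 0 lower in both. Grm7, a presynaptic autoreceptor, had 13.1, 13.5, 13.4 and 11.9 CPM in Akita and 21.2, 23.6, 18, 21.4 and 22 CPM in Akita + NACET (0.71, SE 0.140).

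Inhibitory receptors moved in the same direction, with 8 of 22 GABA and glycine receptor genes called higher, 0 lower and a median of 0.41. Glra1, the alpha subunit of the glycine receptor, had the largest change of the list at 1.36 (SE 0.266, adjusted p = 0.0161). It had 2.45, 2.78, 2.39 and 2.90 CPM in Akita and 5.31, 7.37, 4.91, 6.40 and 9.73 CPM in Akita + NACET. The spread was wider among treated libraries, yet no value overlapped.

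Ion channels were called higher in 14 of 37 potassium channel genes and in 11 of 32 sodium, calcium and HCN channel genes, with 1 lower in each list. Kcnd3, an A-type potassium channel whose exons overlap a gene on the other strand, had 10.7, 10.4, 9.86 and 8.70 CPM in Akita and 16.6, 18.9, 15.1, 17.5 and 24.8 CPM in Akita + NACET (0.90, SE 0.182, adjusted p = 0.0161). Hcn3, a pacemaker channel whose exons overlap those of Pklr on the other strand, rose 2.1-fold. The channel genes called lower were Kcnj14 (-0.59), an inward rectifier, and Cacna2d4 (-0.40), the auxiliary calcium channel subunit of the photoreceptor ribbon synapse. Cacna2d4 averaged 398 ± 79.4 CPM (SD, n = 4) in Akita and 302 ± 24.6 CPM (SD, n = 5) in Akita + NACET.

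Synaptic scaffolds were mostly called higher. Of 32 postsynaptic scaffold and adhesion genes, 10 were called higher (31.25%, against 4.51% of all genes) and 1 lower, and 28 fold changes were above 0. Those higher included Grip1 (0.60), a scaffold of AMPA receptors, and Nlgn1 (0.64), which binds neurexins across the cleft. The exception was Dlg4, which encodes the scaffold PSD-95 and, in the mouse retina, is abundant in photoreceptor terminals. Dlg4 had 373, 343, 387 and 546 CPM in Akita and 237, 240, 252, 264 and 238 CPM in Akita + NACET. It had the smallest adjusted p of all genes (0.0104, log2 fold change -0.74, SE 0.109), and was still called without Akita replicate 4 (-0.58, SE 0.0833, adjusted p = 0.0143, edgeR). Of 30 presynaptic genes 3 were called higher (10%, against 4.51% of all genes), Nrxn3 and Syn2 among them. Slc17a7 and Syp were called lower (6.67%, against 5.14% of all genes). Slc17a7, the vesicular glutamate transporter of photoreceptors and bipolar cells, had 288, 264, 234 and 400 CPM against 228, 186, 207, 222 and 187 CPM (-0.53, SE 0.136).

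**Figure D2:**
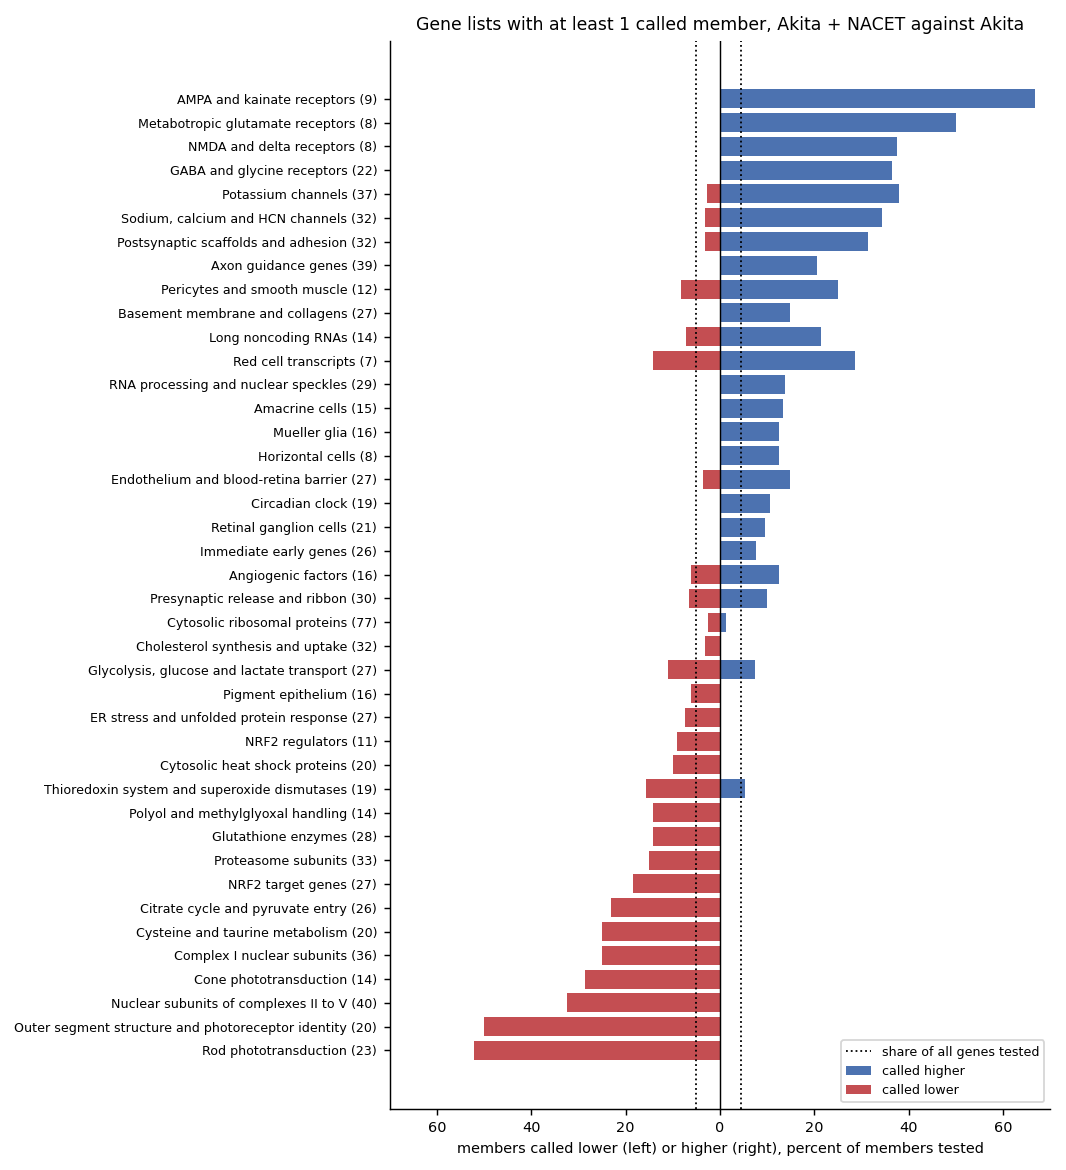
Percent of tested members called lower (left, red) or higher (right, blue) in Akita + NACET against Akita, for the 41 gene lists with a called member (number tested in brackets). Dotted lines mark the share of all genes called, 5.14% lower and 4.51% higher; the rod list stands at the bottom with 12 of 23 lower and the AMPA and kainate list at the top with 6 of 9 higher.

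Over the 4 lists of inner retinal cell markers 5 of 64 genes were called higher (7.81%, against 4.51% of all genes). Amacrine markers had 2 of 15 called higher (Slc32a1, the vesicular GABA transporter, and C1ql2), horizontal cell markers 1 of 8 (Slc4a3), ganglion cell markers 2 of 21 (Chrnb3 and Ebf1) and bipolar cell markers 0 of 20. None of these markers was called lower, and their medians were 0.39, 0.28, 0.20 and 0.25. The summed ganglion cell markers were 1969, 2150, 2364 and 995 CPM in Akita and 2557, 2112, 2490, 1931 and 1682 CPM in Akita + NACET. The groups overlapped, and Akita replicate 4 was far below the others; the list median was -0.0021 without it and 0.47 with the share outside exons in the model, against 0.20. Rbpms, an RNA-binding protein used as a ganglion cell marker, had 37.6, 50.7, 53.0 and 27.4 CPM against 68.5, 53.6, 63.8, 49.3 and 37.0 CPM (0.36, SE 0.195, adjusted p = 0.224).

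Some nuclear genes of mitochondrial energy supply fell by small amounts. Of 36 nuclear genes of complex I, 9 were called lower (25%, against 5.14% of all genes) and 0 higher. The median was -0.29 and every fold change was below 0. Of 40 nuclear genes of complexes II to V, 13 were called lower (32.5%) and 0 higher (median -0.29). Uqcrb, a subunit of complex III, had 79.5, 83.0, 85.2 and 80.8 CPM against 67.5, 60.8, 63.1, 59.5 and 45.1 CPM (-0.47, SE 0.105, adjusted p = 0.0203). The groups did not overlap and treated replicate 5 was the lowest. Without Akita replicate 4 the medians of these lists were -0.30 and -0.32, and with the share outside exons in the model they were -0.044 and -0.058. None of the 8 mitochondrially encoded genes tested was called.

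The citrate cycle list had 6 of 26 called lower (23.1%, against 5.14% of all genes). Among them were citrate synthase (Cs) and Idh1, the cytosolic isocitrate dehydrogenase that makes NADPH. Glycolysis was mixed: Hk1, Aldoa and Pgam1 were called lower, and Slc2a3 and Pfkfb3 higher, of 27. These are 11.1% and 7.41%, against 5.14% and 4.51% of all genes. Pfkfb3, which makes the activator of phosphofructokinase, had 27.2, 28.3, 24.3 and 23.3 CPM in Akita and 35.1, 43.3, 40.5, 41.1 and 54.1 CPM in Akita + NACET (0.73, SE 0.125, adjusted p = 0.0152). Slc2a3, the neuronal glucose transporter GLUT3, rose by 0.65 on the log2 scale. Of 33 proteasome genes 5 were called lower (15.2%, against 5.14% of all genes) and 0 higher. Their median was -0.21, and -0.0051 with the share outside exons in the model. Cytosolic ribosomal protein genes had 2 of 77 lower (2.60%, below the 5.14% of all genes) and 1 higher.

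The NRF2 pathway was not called higher. Nfe2l2 itself had 33.8, 31.9, 36.2 and 43.2 CPM in Akita and 35.7, 26.6, 27.4, 25.7 and 27.1 CPM in Akita + NACET. Treated replicate 1 lay within the Akita range and the other treated libraries below it, and the gene was called lower (-0.35, SE 0.103, adjusted p = 0.0411). Keap1, its repressor, averaged 57.3 ± 5.37 CPM (SD, n = 4) in Akita and 55.1 ± 5.0 CPM (SD, n = 5) in Akita + NACET (adjusted p = 0.685). The transcripts report RNA only, whereas NRF2 is controlled mainly as a protein.

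Of 27 NRF2 target genes tested, 0 were called higher and 5 lower (18.5%, against 5.14% of all genes). Among genes in the highest quintile of CPM per kilobase of exon, 17.8% were called lower. The median of the target list was -0.13. The median was -0.21 without Akita replicate 4, lay between -0.21 and -0.058 as each library was left out, and was 0.0062 with the share outside exons in the model. Gclc and Gclm, subunits of glutamate-cysteine ligase, the limiting enzyme of glutathione synthesis, averaged 5.61 ± 0.862 and 40.3 ± 6.12 CPM in Akita (SD, n = 4). In Akita + NACET they averaged 6.72 ± 0.779 and 41.8 ± 3.06 CPM (SD, n = 5), with log2 fold changes of 0.26 (SE 0.145) and 0.052 (SE 0.107). The quinone reductase Nqo1 had 7.57, 5.96, 9.10 and 2.90 CPM against 6.41, 8.02, 7.79, 7.71 and 5.42 CPM, and its lowest value was Akita replicate 4. Heme oxygenase Hmox1 had a log2 fold change of -0.39 (SE 0.252), glutathione reductase Gsr 0.064 (SE 0.111) and thioredoxin reductase Txnrd1 -0.16 (SE 0.0946). The adjusted p of these 6 genes lay between 0.248 and 0.783.

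The 5 targets called lower were Taldo1 (-0.43), Pgd (-0.28) and G6pdx (-0.31), enzymes of the pentose phosphate pathway that supplies NADPH, with the ferritin heavy chain Fth1 (-0.49) and the glutathione transferase Gstp1 (-0.41). Taldo1 had 174, 166, 185 and 221 CPM in Akita and 150, 135, 153, 148 and 104 CPM in Akita + NACET. Fth1 had 1010, 976, 996 and 863 CPM against 844, 705, 800, 675 and 402 CPM. The groups did not overlap in either gene, and treated replicate 5 was the lowest. An antioxidant response element, TGACNNNGC on either strand, stood in 7 of 27 windows of the target list (25.9%), against 13.4% of all windows, 12.5% of those of genes called higher and 13.8% of those called lower. None of the 5 targets called lower held these letters in the 250 bases before the start. Gstp1 held TGAGTCAGC there, with a G in place of the searched C, and this form was not counted.

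**Figure D3:**
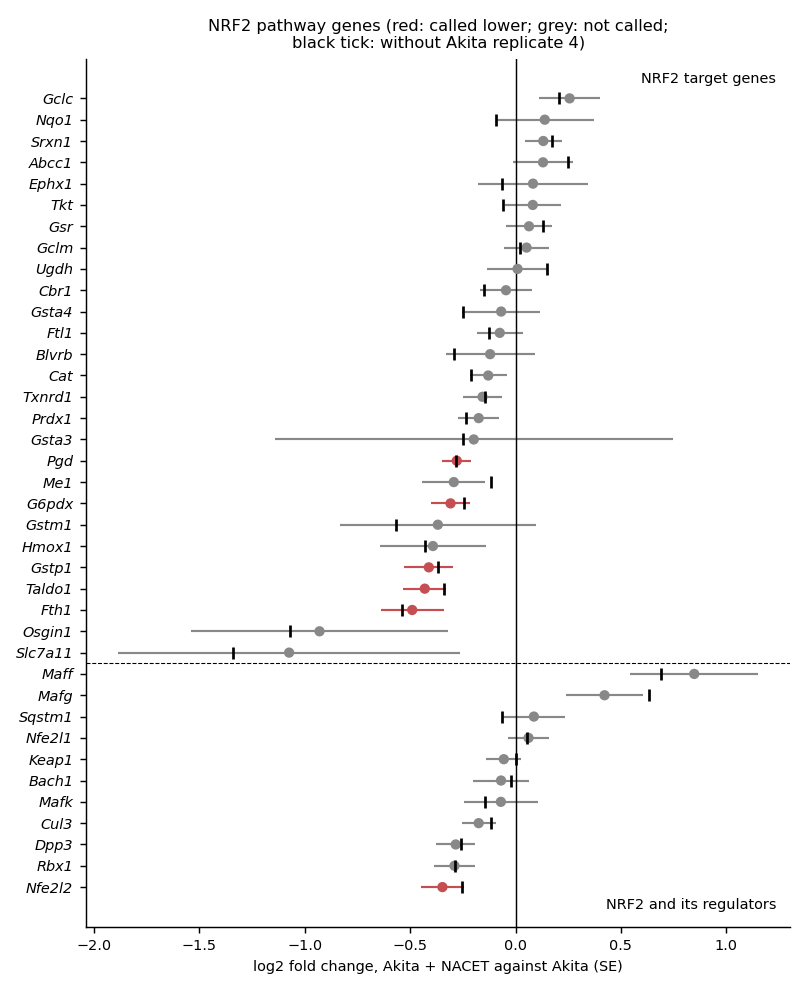
Log2 fold change (horizontal axis, with SE) of 27 NRF2 target genes (above the dashed line) and of NRF2 and 10 of its regulators (below) in Akita + NACET against Akita. Red points were called lower, grey points were not called, and black ticks give the value without Akita replicate 4; no gene was called higher.

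Other redox genes were called lower more often than higher. Over the 5 redox lists together, 18 of 105 genes were lower (17.1%, against 5.14% of all genes) and 1 was higher. With the share outside exons in the model the median of the glutathione enzymes went from -0.12 to -0.045. That of the thioredoxin and superoxide dismutase list went from -0.14 to 0.037, and that of cysteine and taurine metabolism from -0.35 to -0.20. Gpx4, the peroxidase that reduces lipid hydroperoxides, had 66.0, 58.7, 81.9 and 71.1 CPM in Akita and 51.2, 44.9, 53.7, 51.4 and 33.1 CPM in Akita + NACET (-0.57, SE 0.121, adjusted p = 0.0193). Sod2, the mitochondrial superoxide dismutase, and Txn1, thioredoxin, fell by 0.34 and 0.40 on the log2 scale. The gene called higher was Mt2, a metallothionein that binds zinc and copper. It had 7.01, 5.56, 5.59 and 3.73 CPM in Akita and 6.89, 12, 8.68, 9.13 and 8.49 CPM in Akita + NACET (0.72, SE 0.216, adjusted p = 0.0422), and 1 treated library lay within the Akita range. Of the enzymes that remove methylglyoxal, a reactive by-product of glycolysis, Glo1 (-0.44) and Hagh (-0.39) were both called lower. With the share outside exons in the model the fold changes were -0.24 for Gpx4, -0.20 for Glo1 and -0.10 for Hagh.

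Low-count vascular transcripts held some of the largest increases. Of 27 genes of endothelium and the blood-retina barrier, 4 were called higher (14.8%, against 4.51% of all genes) and 1, Podxl, lower. Those higher were Cldn5, Cd34, Slco1a4 and Sox17. The list median was 0.71, or 0.32 when only the 9 Akita libraries were fitted and 0.37 with the share outside exons in the model. The fit of the 9 libraries tested 15346 genes, and its median covers only the list members that passed its filter. Cldn5, the tight junction protein claudin-5, had 0.491, 0.579, 0.126 and 0.580 CPM in Akita and 2.41, 2.77, 1.53, 2.30 and 0.784 CPM in Akita + NACET. The values do not overlap but stand for few reads, and the log2 fold change of 2.14 has an SE of 0.536 (adjusted p = 0.0239). In the list of pericytes and smooth muscle 3 of 12 genes were called higher (25.0%, against 4.51% of all genes): Notch3, Higd1b and Pdgfrb. Higd1b averaged 0.0968 CPM in Akita and 0.542 CPM in Akita + NACET, which stands for few reads. The member called lower, Vtn, was far more abundant. Vtn averaged 1540 ± 170 CPM in Akita (SD, n = 4) and 1120 ± 154 CPM in Akita + NACET (SD, n = 5). Like the rod sum, it was highest in Akita replicate 4 (1780 CPM) and lowest in treated replicate 5 (892 CPM). Which cells its reads came from was not tested. Klf2, a transcription factor induced by blood flow in endothelium, was called higher at 1.83 (SE 0.558, adjusted p = 0.0442).

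The summed endothelial list was 681 to 912 CPM in Akita and 606 to 753 CPM in Akita + NACET, with overlapping groups. Of 7 red cell transcripts tested, 2 were called higher (Hbb-b2 and Alas2) and 1 lower (Bpgm, -0.43). These are 28.6% and 14.3%, against 4.51% and 5.14% of all genes. The red cell list summed to 181 to 206 CPM in Akita and 150 to 236 CPM in Akita + NACET, also with overlap. Hbb-b2, a beta-globin of red cells and a near-identical copy of another globin gene, had the largest increase among called genes whose groups did not overlap and whose mean reached 1 CPM. It had 2.38, 1.68, 1.0 and 0.912 CPM in Akita and 3.45, 11.1, 4.79, 11.9 and 2.87 CPM in Akita + NACET (2.18, SE 0.475, adjusted p = 0.0204). Treated replicates 2 and 4 had the most of it, and these were also the highest for Cd34 and Notch3, both of which overlap exons of a gene on the other strand. How far blood or vessel content differed between the dissected retinas was not tested. Vegfa, the main angiogenic factor, had 7.15, 7.59, 6.03 and 6.96 CPM against 9.85, 9.08, 9.19, 9.76 and 17.2 CPM (0.67, SE 0.174, adjusted p = 0.0273), while Hif1a, the oxygen-regulated factor, fell by 0.31 on the log2 scale.

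Genes of gliosis (16), microglia (19) and inflammatory mediators (10) gave 0 calls. Fold changes were below 0 in 12, 17 and 6 of them, with list medians of -0.14, -0.18 and -0.061. Without Akita replicate 4 these medians were -0.22, -0.40 and -0.13. With the share outside exons in the model they were -0.20, 0.030 and -0.11. Gfap, the filament protein of reactive glia, had 117, 62.4, 85.5 and 33.2 CPM in Akita and 87.7, 63.2, 79.2, 50.5 and 25.9 CPM in Akita + NACET, with wide spread in both groups (-0.28, SE 0.382, adjusted p = 0.657). Il1b had 0 to 2 reads and Il6 0 to 1 read per library in the 9 libraries, too few to test. Among Mueller glia markers 2 of 16 were called higher (12.5%, against 4.51% of all genes), Car14, a carbonic anhydrase, and Abca8a.

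Noncoding RNAs of the imprinted Dlk1-Dio3 region on chromosome 12 were among the largest increases. Meg3, the maternally expressed long noncoding RNA at chr12:110779211-110809936, had 71.7, 84.0, 70.6 and 65.6 CPM in Akita and 203, 241, 143, 187 and 256 CPM in Akita + NACET. The lowest treated value was above every untreated one, and the log2 fold change was 1.5 (SE 0.271, adjusted p = 0.0161; 1.45 without Akita replicate 4). Mirg, further along the same strand at chr12:110973191-110987665, had 1.05, 1.04, 1.32 and 0.912 CPM against 2.21, 3.36, 2.49, 3.73 and 4.64 CPM (1.59, SE 0.302, adjusted p = 0.0161). Meg3 and Mirg overlap microRNA genes of the same strand, and reads of the shared bases cannot be assigned. With the share outside exons in the model their fold changes were 0.67 and 0.97. The symbol SNORD113 pools 22 annotated loci of small nucleolar RNAs and overlaps exons of the noncoding gene Rian on the same strand, so its counts belong to no single locus. It had 0.332 to 0.753 CPM in Akita and 0.896 to 2.48 CPM in Akita + NACET (1.52, SE 0.413), and 0.28 in that model. Snhg11, a host gene of small nucleolar RNAs on another chromosome, rose similarly, with 125, 164, 120 and 105 CPM in Akita and 345, 416, 258, 295 and 452 CPM in Akita + NACET.

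Annotated classes of RNA differed in their share of calls. Of 393 processed transcripts 44 (11.2%) were called higher and 4 lower, of 579 lincRNAs 35 (6.04%) were higher and 6 lower, and of 816 pseudogenes 8 were higher and 56 (6.86%) lower. Protein-coding genes stood at 4.43% higher and 5.37% lower. In the list on RNA processing 4 of 29 were called higher (13.8%, against 4.51% of all genes): Srsf1, Srsf2, Luc7l3 and Clk1. Srsf2, whose exons overlap Mfsd11 on the other strand, had 137, 160, 142 and 181 CPM in Akita and 231, 232, 199, 224 and 380 CPM in Akita + NACET (0.71, SE 0.196, adjusted p = 0.0351). With the share outside exons in the model its fold change was 0.091 and the list median -0.034, against 0.19.

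Extracellular matrix and axon guidance genes were called higher only. Of 27 basement membrane and collagen genes 4 were higher (Col6a1, Lama1, Lamb1 and Agrn), and of 39 axon guidance genes 8. These are 14.8% and 20.5%, against 4.51% of all genes. With the share outside exons in the model the list medians went from 0.27 to 0.14 and from 0.45 to 0.10. Col6a1, a chain of the microfibrillar collagen VI, had 4.14, 5.73, 5.34 and 3.98 CPM in Akita and 11.9, 14.4, 7.66, 9.76 and 16.9 CPM in Akita + NACET (1.33, SE 0.290, adjusted p = 0.0203). In the circadian clock list 2 of 19 were called higher (10.5%, against 4.51% of all genes), Per3 and Tef. Per3 had 56.5, 58.3, 35.0 and 51.6 CPM against 72.2, 83.7, 66.4, 81.6 and 118 CPM. The fold change of Per3 was 0.75, and 0.00071 with the share outside exons in the model. Immediate early genes had 2 of 26 called higher (7.69%, against 4.51% of all genes), Klf2 and Csrnp1. Called lower were 2 of 27 genes of the unfolded protein response (Pdia4 and Atf6, 7.41%) and 2 of 20 cytosolic heat shock proteins (Hsp90aa1 and Hspa4l, 10%), against 5.14% of all genes. The chromatin regulator list, with 26 genes tested, had no call.

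Further large changes were as follows. Higher genes were Eltd1 (2.0), an adhesion receptor of endothelium, Ltbp4 (1.58), a matrix protein that binds latent TGF-beta, and the poorly described BC046401, Gm16243 and 4933413L06Rik. Lower genes were Wnt9b (-1.14), a Wnt ligand, Gm12996 (-0.94), Hpdl (-0.89), Lrrc46, Ube2t, a ubiquitin-conjugating enzyme, Gm13410 and Clca3. Wnt9b had 1.89, 1.27, 1.38 and 1.49 CPM in Akita and 1.03, 0.471, 0.383, 0.808 and 0.718 CPM in Akita + NACET, and its fold change was as large without Akita replicate 4 (-1.14). Among abundant genes, Slc22a17 (0.77), Aplp1 (0.49) and the synaptic vesicle gene Syt4 (0.53) were called higher.

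The direction of change went with the level and the length of the gene. By quintile of CPM per kilobase of exon, the share of genes called lower was 0.28%, 0.529%, 2.08%, 5.16% and 17.8% from the lowest to the highest, and 68.8% of all genes called lower lay in the highest quintile. The share called higher was 4.79%, 8.0%, 5.88%, 2.96% and 0.871%. The shares of all genes set beside the lists above were not matched for level or length. The NRF2 targets (18.5%), redox lists (17.1%) and proteasome genes (15.2%) were near the 17.8% called lower in the highest quintile. Which quintiles their members fell in was not examined. By quintile of exonic length, from the shortest to the longest, the share called higher was 1.83%, 2.49%, 3.68%, 5.23% and 9.27% and the share called lower 6.59%, 7.15%, 5.61%, 3.80% and 2.71%. The median log2 fold change ran from -0.14 in the shortest to 0.10 in the longest quintile, from -0.15 to 0.12 without Akita replicate 4, and from -0.0046 to -0.053 in the model that held the share outside exons. By quintile of GC content of exons the share called higher was 5.54%, 4.23%, 4.92%, 3.67% and 4.14%. With length-dependent offsets per library 1718 genes were called, 35.8% of them higher against 46.7% in the main comparison, and with GC-dependent offsets 1835 genes, 40.2% higher. When only these 9 libraries were fitted, edgeR called 700 genes, 76.3% higher.

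**Figure D4:**
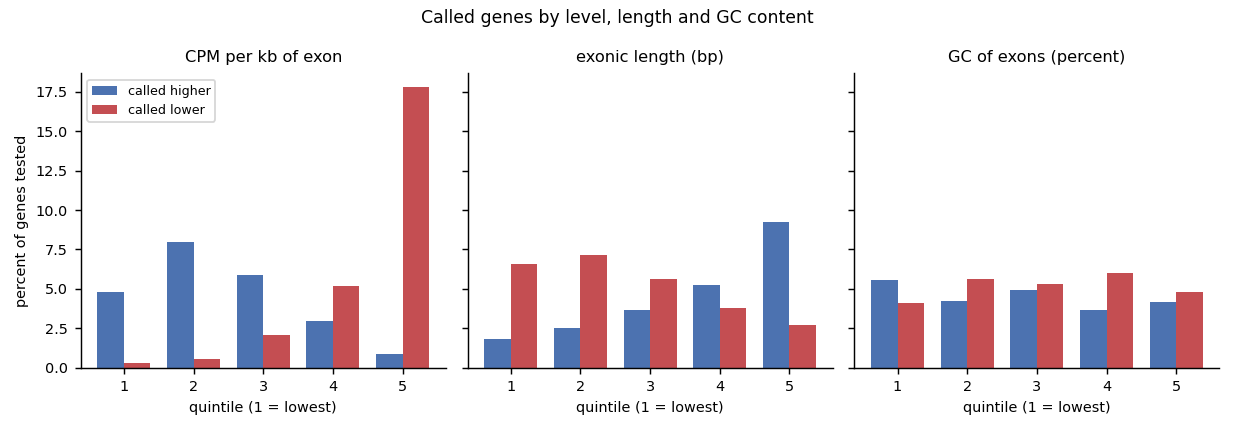
Percent of genes tested that were called higher (blue) or lower (red) in Akita + NACET against Akita, by quintile of level per kilobase, exonic length and GC content of exons (1 is the lowest). Lower calls gather in the most abundant genes (17.8% of the highest quintile) and higher calls in the longest genes (9.27%).

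**Figure D5:**
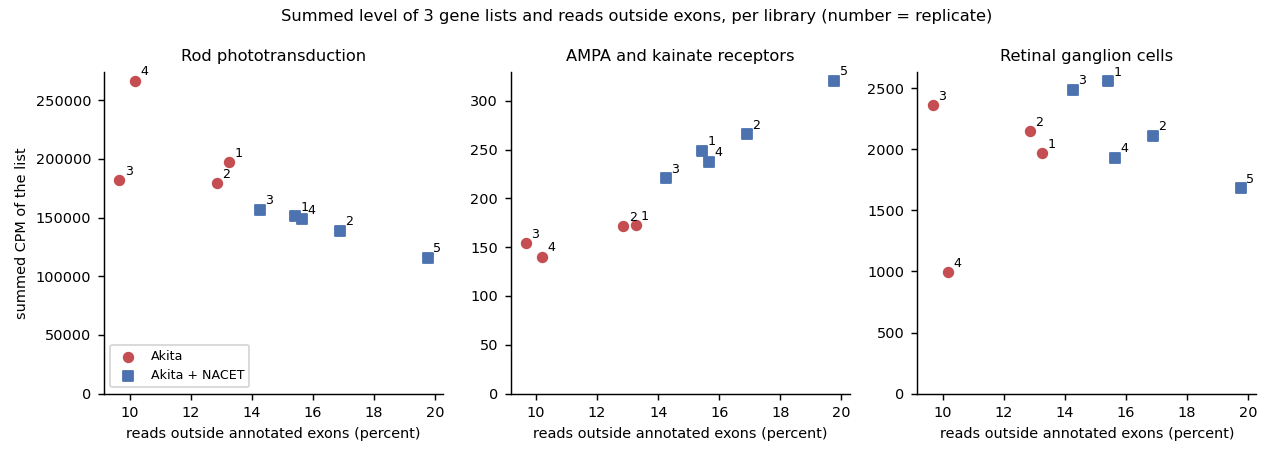
Summed CPM (vertical axes, starting at 0) of the rod, AMPA and kainate receptor and ganglion cell lists in each Akita (circles) and Akita + NACET (squares) library against its percent of reads outside annotated exons. Akita replicate 4 has the highest rod sum (266700 CPM) and the lowest ganglion cell sum (995 CPM), and treated replicate 5 has the largest share outside exons (19.8%) and the highest AMPA and kainate sum (321 CPM).

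The AMPA and kainate genes summed to 140 to 173 CPM in Akita and 220 to 321 CPM in Akita + NACET, and the rod genes to 116000 to 156800 CPM in Akita + NACET. Treated replicate 5, with the largest share outside exons, had the lowest rod sum and the highest AMPA and kainate sum. What part of these differences goes with that share was not tested beyond the covariate fit given above.

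NACET in WT mice was used as the second genotype. There 240 genes (1.48%) were called, 139 higher and 101 lower in WT + NACET. The interaction, the NACET effect in Akita minus that in WT, was called for 3289 genes (20.3%), 1640 with a positive and 1649 with a negative value. Of the 1562 genes called in Akita, 1336 (85.5%) had an interaction. The Akita effect is a term of the interaction, so these calls are not independent. Genes called in both genotypes numbered 65, which is 4.16% of the Akita calls and 27.1% of the WT calls, and 63 of them changed in opposite directions. The share of reads outside exons moved the other way in this genotype, at 14.9% to 17.1% in the 3 WT libraries and 9.55% to 16.6% in the 6 WT + NACET libraries, and with it in the model none of the 100 interactions called among the 123 named genes was called. Its part in the interaction was not tested further.

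The group means show this for single genes. Gnat1 averaged 12260 ± 2546 CPM in WT (SD, n = 3), 14760 ± 2288 in WT + NACET (n = 6), 18220 ± 4297 in Akita (n = 4) and 11650 ± 1867 in Akita + NACET (n = 5), and the interaction was -0.91 (SE 0.239, adjusted p = 0.0138, edgeR). Gria2 averaged 93.8 ± 11.2, 62.2 ± 13.4, 47.3 ± 3.32 and 87.5 ± 16.1 CPM in the same order, with an interaction of 1.48 (adjusted p = 0.000724). Meg3 averaged 243 ± 44.9, 144 ± 60.2, 73.0 ± 7.83 and 206 ± 45.1 CPM, with an interaction of 2.25 (adjusted p = 0.00249). In these 3 genes, picked among those called in Akita, the fold change in WT had the opposite sign but was not called (adjusted p of 0.4, 0.0539 and 0.145, edgeR). The Akita + NACET mean lay nearer to the WT mean than the Akita mean did. The share outside exons was grouped likewise, at 14.9% to 17.1% in WT, 14.3% to 19.8% in Akita + NACET and 9.67% to 13.3% in Akita. Whether the nearness to WT goes with that share was not tested. By list, the median effect in WT was 0.25 for rod genes, -0.36 for AMPA and kainate genes and 0.18 for complex I genes, against -0.44, 0.63 and -0.29 in Akita. Mt2 had log2 fold changes of 0.72 in Akita and 0.62 in WT (adjusted p = 0.149), and the interaction was 0.0987 (adjusted p = 0.845). Gfap averaged 54.1 ± 23.0 CPM in WT and 192 ± 48.7 CPM in WT + NACET, with a log2 fold change of 1.83 that was not called (adjusted p = 0.0539) and an interaction of -2.11 (adjusted p = 0.0209).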

How the data were processed

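Poly(A) RNA of mouse retina was sequenced with single-end reads. The authors aligned reads to mm9 with TopHat 2.1.0 and counted reads in exons per gene with HTSeq 0.11.2, without using strand, so reads of overlapping antisense genes cannot be told apart. Besides the genes marked above, exons of Glra1, Grm7, Grin1, Uqcrb, Car14, Hif1a, Slc32a1, Alas2, Syt4, Syp, Hk1, Keap1, Gclm, Tef and Srsf1 overlap a gene on the other strand. Exons of Gria2 and Pdia4 overlap an annotated gene on the same strand. The deposited unit is counts, 1 file per library, with 35006 genes and 5 summary entries, of which "no feature" gives the reads outside annotated exons. Summary entries and 206 ribosomal RNA genes were removed here. Library sizes covered 13522000 to 17814000 counts in the 9 Akita libraries.

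Groups were taken from the sample titles. Genes passing edgeR's filter (minimum count 10 and minimum total count 15) were fitted in 1 model over all 18 libraries with TMM scaling and the robust quasi-likelihood test (edgeR 4.0.16, R 4.3.3), Benjamini-Hochberg adjustment over all 16183 genes and a threshold of 0.05. SE is the log2 fold change divided by the root of the F statistic. Alternatives used DESeq2 1.42.0, sva 3.50.0, other filters, offsets, covariates and libraries left out. Replicate pairs of the 2 groups differed by 4.70 to 51.7 chi-square per degree of freedom, so none was a duplicate.

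Genes were named by rule: the 10 largest increases and decreases among called genes whose groups did not overlap and whose mean reached 1 CPM, the 5 most abundant per kilobase in each direction, the 2 called members with the smallest p in each direction of each of 49 lists, and the study's readouts. The members and lists were chosen with earlier results of these data known. Promoter windows were read from the mm9 genome at the annotated gene starts. Some genes that the rule names are not reported here. Akita against WT was not analysed here.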

Additional observations from a re-analysis of the deposited data

Results flagged for a closer look

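In groups of 4 to 10 libraries, 16 of 246 pairs of a named gene and a group held a library set apart from the others by Dixon's criterion, and chance gives about 1 in 20. Of these, 15 are given. Akita replicate 4 was that library for Rcvrn (3520 CPM), Syt4 (121 CPM), Glrx2 (152 CPM), Txn1 (54.8 CPM), Impg2 (594 CPM), Slc32a1 (13.2 CPM), Hsp90aa1 (281 CPM) and Hspa4l (801 CPM). Treated replicate 1 stood apart for Slc6a6 (3100 CPM), Nfe2l2 (35.7 CPM) and Hspa4l (523 CPM), treated replicate 5 for Srsf2 (380 CPM), Gnat1 (8430 CPM) and Vegfa (17.2 CPM), and Akita replicate 3 for Hmox1 (4.83 CPM).

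Of the 123 named genes 114 were called in Akita, and the Akita effect is a term of the interaction, so the naming rule favours interaction calls. The NACET effect differed between Akita and WT (edgeR interaction, adjusted p of at most 0.05) for 100 of the 123, against 20.3% of all genes. Values are given for 26 of the 29 such genes among the 40 with the largest changes, the highest levels or a role as study readout, as the log2 effect in Akita minus that in WT. Positive values were found for Klf2 (3.44), BC046401 (3.08), Gm16243 (2.91), Cldn5 (2.83), Ltbp4 (2.74), 4933413L06Rik (2.41), Mirg (2.37), SNORD113 (2.17), Slc22a17 (1.4), Srsf2 (1.27), Aplp1 (1.04) and Syt4 (0.73). Negative values were found for Gfap (-2.11), Wnt9b (-1.92), Hpdl (-1.70), Gm12996 (-1.66), Lrrc46 (-1.46), Slc6a6 (-1.21), Rcvrn (-1.11), Gm13410 (-0.98), Gnat1 (-0.91), Clca3 (-0.91), Gnb1 (-0.87), Rom1 (-0.71), Prph2 (-0.66) and Nfe2l2 (-0.55). In the model that held the share outside exons none of the 100 interactions was called.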

How the results depend on the processing

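The direction of all 114 called genes that are named was kept in every alternative that fitted them, but the number of calls was not. Against 1562 calls (730 higher, 832 lower), DESeq2 on all groups called 2387 (1330 lower), edgeR on the 2 Akita groups alone 700 (166 lower), no filter 1010 (493 lower), an adjusted p of 0.01 0 genes in either direction by edgeR (4700 genes had an unadjusted p under 0.05) and a fold change above 2 150 (142 higher, 8 lower). DESeq2 size factors called 1521 genes and 1 surrogate variable 1370. With reads outside exons as a covariate 0 genes were called in either direction (1281 at an unadjusted p under 0.05), and 0 in the photoreceptor, synapse, energy and redox lists. edgeR on the 2 groups alone called 13 photoreceptor, 4 energy and 2 redox list members lower. Leaving out 1 library gave 1 to 1754 calls, 0 to 816 higher and 1 to 938 lower, and 0 to 28 photoreceptor, 0 to 63 synapse, 0 to 55 energy and 0 to 21 redox list members, against 26, 59, 33 and 18. The lowest values belong to Akita replicate 4. The causes were not tested.

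Replicate numbers are shared by the groups, but do not pair the libraries: deviations of same-numbered libraries correlated at 0.004, -0.149, 0.125 and 0.0997. A replicate block gave 219 calls (134 higher, 85 lower) and kept 32 of the 114 named calls.

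Fold changes near 0 that were not called changed sign. With the covariate they were 0.018 for Keap1, 0.012 for Hmox1 and 0.0087 for Gfap. With length offsets Gclm had -0.016. Leaving out Akita replicate 4 gave 0.00056 for Keap1 and -0.092 for Nqo1, leaving out Akita replicate 1 gave -0.030 for Gclm, -0.0061 for Gsr and 0.019 for Gfap, and leaving out treated replicate 1 gave -0.0028 for Gsr. Over all libraries left out in turn, the other ends of the ranges were -0.11 for Keap1, 0.36 for Nqo1, 0.14 for Gclm, 0.13 for Gsr and -0.53 for Gfap. Interactions that were not called in these settings also changed sign: Sema4a -0.17, Keap1 0.0040 and Gclm 0.083 with the covariate, Gclm 0.022 with a mean count of at least 50 and 0.036 with 1 surrogate variable. Leaving out 1 library gave interactions from -0.0908 to 0.079 for Gclm and from -0.28 to 0.30 for Mt2.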
